A study of Mus musculus with 4 samples.

Results

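Of the 27063 replicated H3K4me3 peaks of mouse hippocampus, 2055 (7.59%) lay inside an annotated gene and far from any annotated promoter. A peak was counted when the whole of it lay over 10 kb from every transcription start site of every gene type in the GENCODE mouse annotation M21, and when its summit, the deposited position of highest signal, lay within a gene body. They are called far intragenic peaks below. The other peaks were 2485 far intergenic peaks (9.18%), 4878 peaks at 1 to 10 kb from a start site (18.02%) and 17645 peaks within 1 kb of one (65.2%), the last called promoter peaks.

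H3K4me3 is histone H3 trimethylated at lysine 4, measured here by chromatin immunoprecipitation and sequencing (ChIP-seq). The tissue, labelled layer of hippocampus and called hippocampus here, came from adult male B6CASTF1/J mice aged 2 months, a first-generation hybrid strain. All samples shared strain, sex, age and tissue, and no treatment is named. There were 2 pools of 7 tissue samples each, pool C (biological replicate 2) and pool D (biological replicate 1), with 2 technical replicate libraries per pool. The 2 libraries of a pool went into 1 alignment, so each pool gave 1 peak list, and further lists were called on both pools together and as replicated peaks. Peaks are not replicates of a condition, and with 1 list per pool no test across samples was possible: the values below are descriptions, with pool values beside the main comparisons. Depth is not known from the files used here, and in bulk tissue a strong mark in few cells cannot be told apart from a weak mark in many. Among list genes with gene body over 10 kb from start sites, 15 of 15 hippocampal field genes and 15 of 15 pan-neuronal genes had a promoter peak, as did 1 of 11 liver genes. Of all protein-coding genes with such space, 7229 of 9342 had one. So did 12 of 12 astrocyte, 14 of 14 oligodendrocyte lineage, 11 of 11 interneuron and 17 of 18 endothelial and mural genes. Full marking was thus not particular to the hippocampal field and pan-neuronal lists. The share was lower among microglia genes (10 of 13), striated muscle genes (4 of 8) and lymphoid genes (2 of 7).

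H3K4me3 is laid down by the SET1 and MLL (KMT2) methyltransferases and is read by general transcription factors and chromatin remodellers. It is concentrated at the first nucleosomes downstream of active and poised start sites, above all at CpG islands, which attract CXXC-domain proteins. Away from start sites, active enhancers carry mainly the monomethylated form of H3K4. Trimethylation inside a gene can lie at an alternative promoter, at the promoter of a nested or antisense transcript, at an intragenic CpG island or at a strongly active enhancer.

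The bases under the summits of 6 strong far intragenic peaks are printed to show the sequence on which these peaks were centred. Each window runs 100 bases to either side of the summit on the + strand of mm10 and was taken from the RefSeq copy of the GRCm38.p6 assembly (the same build), with every CpG dinucleotide in capitals. The first 3 are the strongest peaks that did not meet a CpG island rule (GC content of at least 50%, observed over expected CpG of at least 0.6, and length of at least 200 bp, over the whole peak). They are at chr15:85671845-85672045 and chr15:85670346-85670546 in intron 1 of Lncppara, and at chr8:46686743-46686943 in intron 2 of Gm16675. The last 3 are the strongest that met it, at chr16:13437484-13437684 in intron 3 of Gm15738, chr4:46305165-46305365 in intron 4 of Gm12446, and chr3:98427740-98427940 in a coding exon of Zfp697.
Lncppara wide peak: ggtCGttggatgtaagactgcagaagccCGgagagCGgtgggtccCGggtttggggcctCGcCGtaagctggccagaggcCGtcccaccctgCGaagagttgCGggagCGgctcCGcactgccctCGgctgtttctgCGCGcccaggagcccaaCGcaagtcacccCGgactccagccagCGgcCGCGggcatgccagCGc
Lncppara flanking peak: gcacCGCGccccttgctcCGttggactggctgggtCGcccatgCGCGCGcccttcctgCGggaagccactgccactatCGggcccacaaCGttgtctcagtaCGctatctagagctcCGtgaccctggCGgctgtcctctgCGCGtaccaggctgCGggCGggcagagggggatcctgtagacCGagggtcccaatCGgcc
Gm16675 intron 2: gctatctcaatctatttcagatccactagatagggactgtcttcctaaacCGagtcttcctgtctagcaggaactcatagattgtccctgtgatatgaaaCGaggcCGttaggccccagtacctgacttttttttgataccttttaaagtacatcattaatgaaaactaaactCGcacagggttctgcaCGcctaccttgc
Gm15738 intron 3: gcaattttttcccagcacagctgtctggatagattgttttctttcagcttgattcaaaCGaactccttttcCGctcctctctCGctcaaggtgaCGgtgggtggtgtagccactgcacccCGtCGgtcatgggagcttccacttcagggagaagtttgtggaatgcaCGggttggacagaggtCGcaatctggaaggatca
Gm12446 intron 4: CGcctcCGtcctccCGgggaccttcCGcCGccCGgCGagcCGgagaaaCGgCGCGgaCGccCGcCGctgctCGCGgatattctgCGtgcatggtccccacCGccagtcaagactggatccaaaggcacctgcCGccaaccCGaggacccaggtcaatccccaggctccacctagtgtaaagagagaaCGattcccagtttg
Zfp697 coding exon: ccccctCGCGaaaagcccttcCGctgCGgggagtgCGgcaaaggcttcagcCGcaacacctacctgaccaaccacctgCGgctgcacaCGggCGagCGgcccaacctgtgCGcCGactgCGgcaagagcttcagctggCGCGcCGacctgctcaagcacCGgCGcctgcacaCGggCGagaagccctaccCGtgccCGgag
The windows held 20, 19, 5, 8, 21 and 22 CpG dinucleotides in the order printed. Both Lncppara windows thus had nearly as many as the Gm12446 and Zfp697 windows, although the whole Lncppara peaks missed the island rule with observed over expected ratios of 0.534 and 0.551. Taken by themselves, the Lncppara windows had ratios of 0.809 and 0.816, and the Gm15738 window had 0.597, below the 0.6 of the rule. The split by the rule therefore holds for the whole peaks and not for the printed windows. The Gm16675 window had a GC content of 43.3%, against 70.1% in the wide Lncppara peak and 70.1% in Zfp697.

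Far intragenic peaks were short and weak for this mark, as were the other peaks outside promoters. Their median width was 544 bp (quartiles 362 and 788 bp, range 180 to 8578 bp), against 569 bp for far intergenic peaks and 1763 bp for promoter peaks. The signal value, the authors' enrichment of each peak, had a median of 4.05 (range 1.90 to 30.5), against 4.73 in far intergenic and 19.1 in promoter peaks of the same list. A −log10 q of at least 5 was reached by 1174 of them (57.1%), against 71.8% of far intergenic peaks, 94.0% of promoter peaks and 83.4% of all replicated peaks. At the weak end, 92 far intragenic peaks had q above 0.05. Together the 2055 peaks covered 1348 kb.

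Of the 10 strongest, 6 lay in noncoding genes, which hosted 11.1% of all members. Their signal values lay between 23.5 and 30.5. Lncppara, a noncoding gene on chromosome 15, held the 2 highest, at chr15:85670887-85677754 (6868 bp, signal 30.5) and chr15:85668344-85670790 (2447 bp, signal 28.4). It also held the widest far intragenic peak, at chr15:85677832-85686409 (8578 bp, signal 20.3). The pool lists drew these peaks together differently. In pool C a single peak of 15258 bp overlapped the first and the third, whereas in pool D a single peak of 9289 bp overlapped the first and the second.

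Further strong peaks lay in the noncoding genes Gm16675 (910 bp, signal 26.9, 51992 bp from the nearest start site), AC165153.1 (1991 bp, 25.3), Gm15738 (1806 bp, 25.1) and Gm12446 (1714 bp, 24.5). Protein-coding genes with a peak of this strength were Igf1r, the receptor for insulin-like growth factor 1, with 2450 bp in intron 2 (signal 26.3), Gm5737 with 1396 bp over a coding exon (24.7), Creb3l1, a membrane-bound transcription factor of the endoplasmic reticulum, with 2164 bp in intron 1 (24.4), and Fgfr2, a fibroblast growth factor receptor, with 558 bp (23.5). All 10 were found in both pools. Their widths in pool C and pool D were 2495 and 1958 bp in Igf1r, 2400 and 1410 bp in Creb3l1, and 573 and 528 bp in Fgfr2. The Fgfr2 peak was thus among the strongest but close to the median of all members in width. The annotated Fgfr2 model spans 2960900 bp.

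The 5 widest also included Ppfia2, which encodes liprin-alpha-2, a scaffold of the presynaptic active zone. Its peak at chr10:106631944-106637225 in intron 3 was 5282 bp wide in the replicated list, 5292 bp in pool C and 3637 bp in pool D. Prkag2, a regulatory subunit of the AMP-activated protein kinase, had 4007 bp in intron 1, with 5941 bp in pool C and 3157 bp in pool D. The remaining one, of 3978 bp, lay in a noncoding exon of Gm49539, within Lncppara. The strongest peak in an exon that was untranslated or noncoding lay in Gm13814 (1525 bp, signal 18.3).

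Pool C recovered nearly all far intragenic peaks and pool D missed many of them. At least 1 bp was shared with a pool C peak by 1929 of the 2055 (93.9%) and with a pool D peak by 1250 (60.8%), against 97.9% and 84.2% of all replicated peaks. Of the members, 1232 were found in both lists, 697 in pool C alone, 18 in pool D alone and 108 in neither. Far intergenic peaks were found at 96.3% in pool C and 70.7% in pool D, and promoter peaks at 99.4% and 94.2%. Peaks at 1 to 10 kb from a start site were found at 95.2% in pool C and 64.8% in pool D. The pool C list itself held 3574 far intragenic peaks (10.5% of its peaks) and the pool D list 1318 (5.34%).

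Recovery in each pool was also read in bands of q value. These q values come from the replicated list, which was built on both pools, so they are not independent of recovery in either. With −log10 q below 2, 67.1% of far intragenic peaks were found in pool C and 13.5% in pool D (n = 222). Between 2 and 5 the shares were 92.7% and 31.7% (n = 659), between 5 and 10 they were 99.0% and 71.0% (n = 503), between 10 and 20 they were 100% and 95.0% (n = 342). At 20 and over, all 329 were found in both. Far intergenic peaks had 11.9%, 30.9%, 69.1%, 96.9% and 100% in pool D over the same bands.

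**Figure D1:**
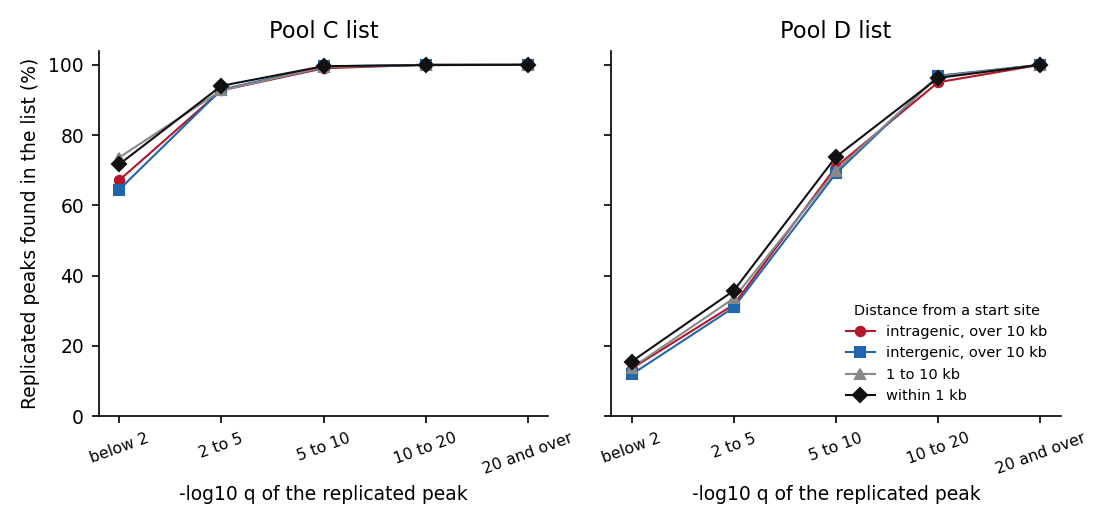
Share of replicated peaks that shared at least 1 bp with the pool C list (left) and the pool D list (right), by band of −log10 q, for 4 classes of distance from a start site. The 4 lines run close together in both panels, and far intragenic peaks climb from 13.5% in the lowest band to 100% in the highest in pool D.

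Plch1, a phospholipase C, held the strongest far intragenic peak with no counterpart in pool D: 452 bp in the replicated list (signal 7.23) and 512 bp in pool C. The strongest with none in pool C lay in Myom1, a protein of the sarcomere, with 257 bp (signal 4.89) and 250 bp in pool D. Where both pools had a peak, the pool C peak was wider at 1163 of 1232 members (94.4%). Median widths there were 806 bp in pool C and 507 bp in pool D, with a median log2 ratio of 0.48 (1.40-fold). The same ratio was 0.42 for far intergenic peaks, 0.52 for peaks 1 to 10 kb from a start site and 0.25 for promoter peaks. Depth and enrichment of the pools are not known, so their part in this difference was not tested.

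Per megabase, gene bodies held more far peaks than intergenic DNA, but not among the strongest peaks. The gene-body space over 10 kb from every start site measured 621.5 Mb and the intergenic space 1110 Mb. Unsequenced stretches of the assembly, where no peak can be called, were not taken out of either. Outside genes they count as intergenic space, and the densities and ratios were not corrected for them. Their densities were 3.31 and 2.24 peaks per Mb in the replicated list, a ratio of 1.48. In the pool C list they were 5.75 and 3.28 per Mb (1.75), in the pool D list 2.12 and 1.64 per Mb (1.297), so the ratio averaged 1.53 ± 0.324 (SD, n = 2 pools). At −log10 q of at least 5 the ratio was 1.18 in the replicated list, 1.44 in pool C and 1.11 in pool D. At 20 and over it was 0.908 in the replicated list, from 0.529 and 0.583 peaks per Mb, with 1.01 in pool C and 0.809 in pool D.

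Density fell with distance in both kinds of space, and less so inside genes. Far intragenic peaks numbered 4.02 per Mb at 10 to 20 kb from the nearest start site (n = 871), 3.36 at 20 to 50 kb (n = 790), 2.61 at 50 to 100 kb (n = 284) and 1.82 beyond 100 kb (n = 110). Far intergenic peaks had 3.62, 2.72, 1.63 and 0.684 per Mb over the same distances. Unsequenced stretches were left in the space here too, and their part in the steeper fall outside genes was not tested. Beyond 100 kb the pool values were 2.92 inside genes and 1.07 outside in pool C, and 1.07 inside and 0.463 outside in pool D. At 10 to 20 kb pool D had 2.65 per Mb inside genes and 2.69 outside, so the order at short distance was not shared by both pools.

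**Figure D2:**
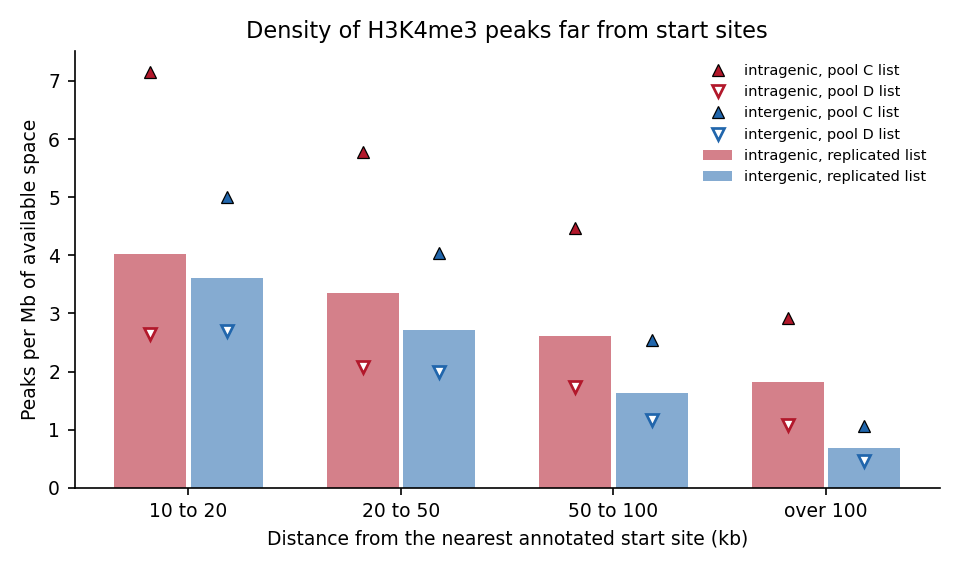
H3K4me3 peaks per Mb of available space, unsequenced stretches included, by distance from the nearest annotated start site, inside genes (red) and outside genes (blue). Bars give the replicated list, filled triangles the pool C list and open triangles the pool D list. The red and blue pool D values nearly coincide at 10 to 20 kb, and the replicated values part most, at 1.82 against 0.684 per Mb, beyond 100 kb.

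At the 10 kb limit there was no step. Peaks with a summit in a gene numbered 143 at 10 to 11 kb and 124 at 9 to 10 kb from the nearest start site. The nearest member lay in Gm20110 at 10002 bp (467 bp wide, signal 5.21), and the nearest peak that was excluded lay in Rnf145 at 9999 bp (433 bp, 4.32). The farthest, singled out after their values were seen, lay 576165 bp from any start site in Ptprd, a receptor-type protein tyrosine phosphatase of synapses, and 547811 bp away in Dcc, the netrin receptor of growing axons. The Ptprd peak was found in pool C (634 bp) and not in pool D, and the Dcc peak in both (680 bp in pool C and 597 bp in pool D).

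Most summits lay in introns, but coding exons were denser. Introns held 1869 summits (90.9%), coding exons 109 (5.30%), and untranslated or noncoding exons 77 (3.75%). Corrected for the space of each, there were 12.7 peaks per Mb in coding exons, 4.68 in untranslated or noncoding exons and 3.13 in introns. Pool C had 20.2, 6.92 and 5.51 per Mb in the same order, and pool D had 9.93, 3.10 and 1.98. Among 1896 members in an intron of their host's longest transcript, 616 were in the first intron (32.5%), 399 in the second (21.0%) and 220 in the last (11.6%). These shares were not corrected for the length of the introns, so they show no preference for any of them. A peak within 1 kb of another replicated peak was the case for 226 members. Joined across such gaps, 13 members (0.633%) belonged to a stretch that came within 10 kb of a start site.

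Summits in coding exons sat later in their genes than the other summits. The median position was 84.7% of the way along the host from its 5′ end for the 109 in coding exons, and 49.6% for the other 1946. Beyond 80% of the way along lay 62 of the coding-exon members (56.9%) and 368 of the others (18.9%). Where coding exons over 10 kb from every start site lie along their genes was not measured. The part of that in the late position was therefore not tested. The strongest of them, by signal, after Gm5737 were in Zfp697 (signal 23.5), a zinc-finger gene, then Ccdc92b (16.7), Klhl31 (16.0) and Trim14 (15.8), the last 3 named after their values were seen. They lay 99.2% of the way along the host in Gm5737, 86.0% in Ccdc92b and 81.0% in Klhl31, but 68.7% in Trim14 and 12.2% in Zfp697, whose annotated model spans 371352 bp. Their widths in pool C and pool D were 1793 and 1797 bp in Zfp697, 1478 and 1408 bp in Ccdc92b, 1144 and 1006 bp in Klhl31, and 1700 and 1000 bp in Trim14. All 4 met the island rule, with observed over expected CpG ratios between 0.694 and 0.920.

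Few far intragenic peaks were CpG-island-like, and 36.8% of those few lay in coding exons. The rule was met by 125 (6.08%), against 8.89% of far intergenic peaks, 39.3% of promoter peaks and 28.8% of all replicated peaks. In the pool lists, taken each by itself, 4.06% of far intragenic peaks met it in pool C and 8.73% in pool D. In coding exons it was met by 46 of 109 (42.2%), in untranslated or noncoding exons by 6 of 77 (7.79%) and in introns by 73 of 1869 (3.91%). The 125 had a median width of 695 bp and a median signal of 6.26, against 540 bp and 3.98 for the other 1930. They were found in pool C at 96.8% and in pool D at 74.4%, the other members at 93.7% and 59.9%. With growing distance from start sites the share was 7.58%, 6.58%, 1.76% and 1.82% in the 4 bands used above.

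**Figure D3:**
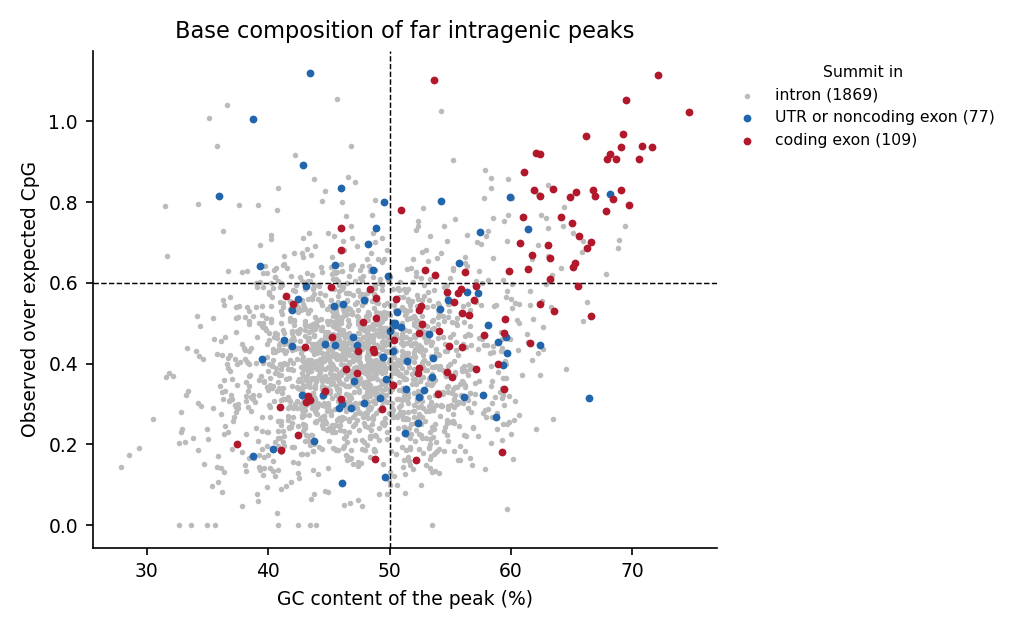
GC content (x axis, percent) and observed over expected CpG (y axis) of each far intragenic peak, coloured by the place of its summit. Dashed lines mark 50% GC and a ratio of 0.6, and the island rule, which also asks for 200 bp, was met by 46 of 109 coding-exon peaks (red) and 73 of 1869 intronic ones (grey).

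Even outside islands, summits lay on DNA richer in CpG than the gene bodies around them. In windows of 100 bases to either side of the summit, the 1930 far intragenic peaks that were not CpG-island-like had a median GC content of 48.3%, an observed over expected ratio of 0.429 and 5 CpG dinucleotides. All 2055 had 48.8%, 0.447 and 5. Windows laid every 5 kb over the same gene-body space (n = 123128) had 41.3%, 0.147 and 1 CpG. A window with no CpG was found at 1.97% of the 1930, 1.85% of all far intragenic peaks and 29.6% of the laid windows. Far intergenic peaks had 50.2%, 0.502 and 6 CpGs, and promoter peaks 64.2%, 0.719 and 14. Repeat sequence filled 8.16% of the peak windows on average and 29.9% of the laid windows. Repeats are hard to map with short reads, and the part of mappability in this difference was not tested.

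Short motifs were counted in the same windows on both strands as a description of the sequence. The palindromic E-box CAGCTG, bound by bHLH factors, was present in 325 of 2055 far intragenic windows (15.8%), against 16.3% of far intergenic, 12.3% of promoter and 7.57% of laid gene-body windows. Members found in pool C had it at 16.1% and those found in pool D at 16.2%. The nuclear factor I motif TTGGCA was present in 14.01%, against 13.2%, 6.79% and 10.03% of the same 3 sets. The bHLH E-box CAGATG was present in 15.3%, near the 15.1% of laid windows, and the AP-1 site TGANTCA in 5.84%, near their 6.17%. The GC box GGGCGGGG was found in 2.14% of far intragenic, 7.07% of promoter and 0.447% of laid windows, and TATAAA in 9.98%, 2.75% and 19.6%. The CTCF core AGGGGGCGC was present in 1 far intragenic window (0.0487%), against 0.483% of far intergenic and 0.776% of promoter windows. Laid gene-body windows had it at 0.0244%, so the far intragenic share, from 1 window, was not below that of the gene bodies. GC content differed between these sets, as given above, and its part in the motif shares was not tested.

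Some of the peaks lay at start sites that another annotation holds. Within 1 kb of a RefSeq transcript start were 147 far intragenic peaks (7.15%), against 10.1% of far intergenic peaks and 63.1% of all replicated peaks. For 28 of the 147 the transcript was curated, for the others it was a predicted model. The start belonged to the host gene itself in 79 cases, and it lay on the strand opposite to the host in 56. Among the 206 members of highest signal the share was 36 of 206 (17.5%), in the rest 111 of 1849. From the other side, 3504 RefSeq start positions lay in the gene-body space over 10 kb from every GENCODE start, and 213 of them (6.08%) had a replicated peak within 1 kb. The 147 were wider (median 755 bp) than the other 1908 (534 bp), and were found in pool C at 96.6% against 93.7% and in pool D at 75.5% against 59.7%.

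The 6 strongest members at a curated RefSeq start lay in Ppfia2, Gm20388, Celf4, Trpm3, Wdr17 and Dlg1, named here after their values were seen. The wide peak of Ppfia2 covered a RefSeq start shared by 22 curated transcripts of that gene. In Gm20388, a very long annotated model, a peak of 1132 bp (signal 14.8) lay at a curated start of Zfp469, with 1172 bp in pool C and 1441 bp in pool D. In Celf4 a peak of 2066 bp (signal 11.8) covered a curated start of its own, with 2106 bp in pool C and 1771 bp in pool D. In Dlg1, a membrane scaffold of the MAGUK family, a peak of 2856 bp (signal 10.7) covered a curated start of Dlg1 itself, with 2880 bp in pool C and 1786 bp in pool D. Trpm3, a cation channel, had a peak of 1239 bp (signal 11.8) over a curated start in intron 19 of its longest transcript, with 1316 bp in pool C and 305 bp in pool D. A peak inside Wdr17 (2716 bp, signal 10.8) covered a curated start of Gpm6a, a membrane glycoprotein of neurons, on the opposite strand. Of the other strong examples, Grik4, a kainate receptor subunit known from the CA3 field, had 1925 bp (signal 17.1) at a predicted start of its own. Among the 10 strongest members, Gm15738 lay 135 bp and Gm12446 18 bp from predicted starts on the opposite strand.

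Host genes mostly carried the mark at their promoter too. The 2055 summits were assigned to 1299 host genes, the protein-coding and then the shorter gene where several overlapped. A peak within 1 kb of one of their own start sites was found for 1072 hosts (82.5%), against 62.6% of the 12758 genes with gene body over 10 kb from every start site. The 12758 include more genes of other types. Among protein-coding genes alone it was found for 1015 of 1119 hosts, against 7229 of all 9342. Among hosts of the 329 members with −log10 q of 20 and over, 73.0% had a promoter peak that itself reached 20. Weaker promoter peaks were left out of that count, so it cannot be set against the 82.5%. Of all 12758 genes with gene body over 10 kb from start sites, 10.5% hosted at least 1 far intragenic peak. Of the 9342 protein-coding ones 12% did so (1119 genes). Genes with a marked promoter had 3.56 peaks per Mb of that space, and genes without had 2.30. The 2 values were 6.36 and 3.36 in pool C, and 2.26 and 1.56 in pool D. Protein-coding hosts held 1826 of the members (88.9%) and lincRNA hosts 161.

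Protein-coding hosts also had broader promoter domains, in which peaks less than 1 kb apart were joined. The broadest domain at a start site of the gene had a median of 2290 bp in marked genes with no far intragenic peak (n = 6214), 2871 bp with 1 (n = 667), 3376 bp with 2 (n = 195), 3497 bp with 3 to 4 (n = 107) and 4926 bp with 5 or more (n = 46). Domains over 5 kb were found in 6.18%, 14.8%, 25.1%, 31.8% and 45.7% of these genes. In the pool lists, taken each by itself, the medians were 4872 bp with 5 or more and 2411 bp with none in pool C, and 4832 and 2094 bp in pool D. Genes with more peaks also had more space for them (median 371 kb against 17.4 kb), so hosts were set beside other genes within ranges of space. Above 100 kb of space the medians were 3474 bp in 516 hosts and 2661 bp in 652 other marked genes, and from 20 to 100 kb they were 2850 and 2409 bp. In both pools hosts had the higher median in each of the 3 ranges of space. Hosts still had more space within each range, with medians of 11.7 against 6.86 kb up to 20 kb, 55.2 against 39.6 kb from 20 to 100 kb, and 231.8 against 168.1 kb above.

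A few genes held many. While 911 hosts had 1 far intragenic peak (70.1%), 46 had 5 or more and together held 308 (15.0%). Pde4d, a cyclic AMP phosphodiesterase, had 12 in 1204 kb of gene body over 10 kb from start sites. Bach2, a transcriptional repressor, had 11 in 247.7 kb, Bcl11b and Tcf4 had 10 each in 83.0 and 156.9 kb, and Gm20388 had 10 assigned to it. The Gm20388 model spans 4435 kb over several other genes, and with peaks shared with those genes it held 17. In the pool lists the same genes had 13 in pool C and 10 in pool D (Pde4d), 15 and 7 (Bach2), 18 and 6 (Bcl11b), and 19 and 3 (Tcf4). The order among them therefore differed between the pools.

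**Figure D4:**
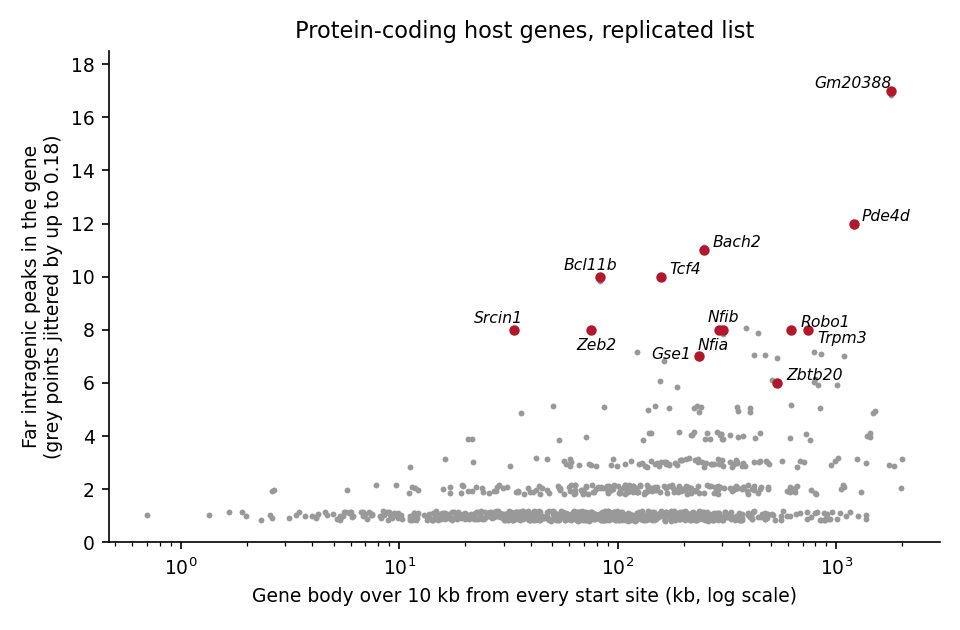
Far intragenic peaks of the replicated list per protein-coding host gene (y axis) against the length of its gene body over 10 kb from every start site (x axis, kb, log scale). Each point is a gene, named genes are red, and peaks in overlapping genes count for each. Most genes have 1 peak, while Srcin1, Zeb2 and Bcl11b stand out with 8, 8 and 10 peaks in under 100 kb.

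Bcl11b, a zinc-finger factor of hippocampal and cortical projection neurons and of T cells, illustrates such a cluster. Its 10 peaks spread from 10979 to 74533 bp from the nearest start site, with widths between 439 and 2524 bp. Of the 10, 4 lay within 1 kb of a predicted RefSeq start of Bcl11b itself. All 10 were found in pool C and 6 in pool D, and none met the island rule. Signal values lay between 2.78 and 6.89, far below those of the strongest members. Its promoter domain measured 16764 bp in the replicated list, 13137 bp in pool C and 10341 bp in pool D. Srcin1, which encodes an inhibitor of Src kinase at synapses, was named after its values were seen: it had 8 peaks in 33.6 kb of space, 10 in pool C and 3 in pool D. Nfia, a nuclear factor I gene, had 8 peaks with signals between 2.52 and 16.4, and a promoter domain of 19240 bp.

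Among 19 gene lists, transcription factors of the brain were rich in far intragenic peaks for their size. Of 29 such genes with gene body over 10 kb from start sites, 19 hosted at least 1, and the list had 79 peaks, or 9.93 per Mb, against 3.41 per Mb over all protein-coding genes. In the pool lists the values were 16.97 against 6.003 per Mb in pool C and 6.28 against 2.15 per Mb in pool D. Tcf4, a bHLH factor, led with 10, and without it the list still had 8.85 per Mb. Nfia and Nfib had 8 each, Sox5, an SRY-box factor, had 7, Zfhx3 and Npas3 had 6 each, and Nfix and Zbtb16 had 5 each. Klf7, Esrrg, Foxp2, Mef2a, Meis1 and Rorb were among the 10 with none in the replicated list. The nuclear factor I genes had promoter domains of 19240 bp (Nfia), 22643 bp (Nfib) and 11747 bp (Nfix).

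Chromatin regulators had 6.58 per Mb, with 12.2 in pool C and 5.06 in pool D, from 6 hosts among 23 genes. Hdac9, a class II histone deacetylase, had 4 and Arid1b, a subunit of the BAF remodelling complex, had 3, with signals up to 8.04 and 21.7. The H3K4 methyltransferase gene Kmt2c had 1. Pan-neuronal genes had 7.83 per Mb, with 10.3 in pool C and 3.76 in pool D, led by Ank2, an ankyrin of axons, with 5, and the RNA-binding splicing regulators Rbfox1 and Celf4 with 4 each. Excitatory neuron genes had 6.79 per Mb, of which Bcl11b gave 10 of 25 peaks, and 4.17 per Mb without it, and the whole list had 11.9 in pool C and 4.34 in pool D. Grin2b, an NMDA receptor subunit, had 5 there and Camk2a, a calcium-dependent kinase, had 4. Hippocampal field genes had 4.76 per Mb, and 6 of their 10 peaks were in Zbtb20, a repressor that specifies the CA fields. The list had 11.4 in pool C and 2.38 in pool D. Without Zbtb20 it had 2.56 per Mb against 3.41 over all protein-coding genes, 8.32 against 6.003 in pool C and 1.92 against 2.15 in pool D. The strongest Zbtb20 peak was 3499 bp wide (signal 13.6), with 3508 bp in pool C and 3509 bp in pool D. Prox1, the factor of dentate granule cells, had none in the replicated list and in pool D, and 5 in pool C.

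Very long synaptic genes had fewer for their size. Synaptic adhesion genes had 42 peaks in 17 of 25 genes, but only 1.93 per Mb, with 3.36 in pool C and 1.33 in pool D, in a median space of 843.4 kb per gene. Magi1, a membrane scaffold, led with 7, Cadm2 had 5, and Cntnap2 and Lrrtm4 had none in the replicated list. Glutamate and GABA receptor genes had 1.67 per Mb in 9 of 23 genes, with 2.62 in pool C and 0.952 in pool D, led by the metabotropic receptor gene Grm5 with 3. Ion channel genes had 3.29 per Mb in 14 of 24, led by Trpm3 with 8, with 4.94 in pool C and 2.15 in pool D. Axon guidance genes had 3.98 per Mb in 16 of 25, led by the Slit receptor gene Robo1 with 8, and 3.28 without it, against 3.41 over all protein-coding genes. They had 5.73 against 6.003 per Mb in pool C and 1.75 against 2.15 in pool D. Large cadherins had 2.84 per Mb, with 5.05 in pool C and 1.89 in pool D and with Pcdh9 in the lead at 4. Activity-regulated genes are short, and 1 of 7 with such space, Pde10a, hosted 2.

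Markers of the other cell types of the tissue gave unequal values. Oligodendrocyte lineage genes had 13.5 per Mb in 4 of 14 genes, but 8 of the 13 peaks were in Zeb2, a zinc-finger factor also active in neurons, and without it there were 5.63 per Mb. The whole list had 23.9 in pool C and 6.22 in pool D. Without Zeb2 it had 13.5 per Mb in pool C, against 6.003 over all protein-coding genes. In pool D it had 2.25 against 2.15, so the higher density without Zeb2 was not shared by both pools. Astrocyte genes had 0.897 per Mb, with 1 peak each in 2 of 12 genes, Slc4a4 among them. Most of their space, 1363 kb of 2.23 Mb, lay in a single gene with 1 peak, so the density rested largely on this gene. In pool C the astrocyte genes had 3.59 per Mb, from 8 peaks in 5 of the 12 genes, 4 of the 8 in Slc4a4, and in pool D 0.897 per Mb. Microglia genes had 2.72 per Mb in 2 of 13, Ptprc among them, with 2.72 in pool C and 1.36 in pool D. Interneuron genes had 1.42 per Mb in 3 of 11, Kcnc2 among them, with 3.32 in pool C and 1.42 in pool D. Endothelial and mural genes had 3.37 per Mb in 4 of 18, with 11.8 in pool C and 2.53 in pool D, the first above and the second near all protein-coding genes of the same list. The 4 hosts were Pdgfrb, the receptor of pericytes, Pecam1, Flt1 and Erg, with 1 peak each.

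The liver and striated muscle lists had few peaks, in space that was small or mostly that of a single gene, and the lymphoid list had more. Liver genes had none in 11 genes, in any of the lists, over 0.237 Mb, too little space to read a low density from. Striated muscle genes had 0.780 per Mb in 2 of 8, with Ryr1, a calcium release channel, in the lead, and 1.17 in pool C and 0.390 in pool D. Most of the muscle space, 1994 kb of 2.57 Mb, lay in a single gene on chromosome X that held no peak. The low muscle density was thus mainly that of this gene. Lymphoid genes had 25.5 per Mb, with 38.2 in pool C and 17.5 in pool D, from 16 peaks in 4 of 7 genes over 0.628 Mb, and 10 of the 16 were the Bcl11b peaks counted above among excitatory neuron genes. Without Bcl11b the list had 11.004 per Mb in the replicated list, 11.004 in pool C and 9.17 in pool D, from 4 peaks in Skap1, an adaptor of T cells, and 1 each in Pax5 and Themis. The promoters of Skap1, Pax5 and Themis were not marked, and all 4 Skap1 peaks were found in both pools.

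**Figure D5:**
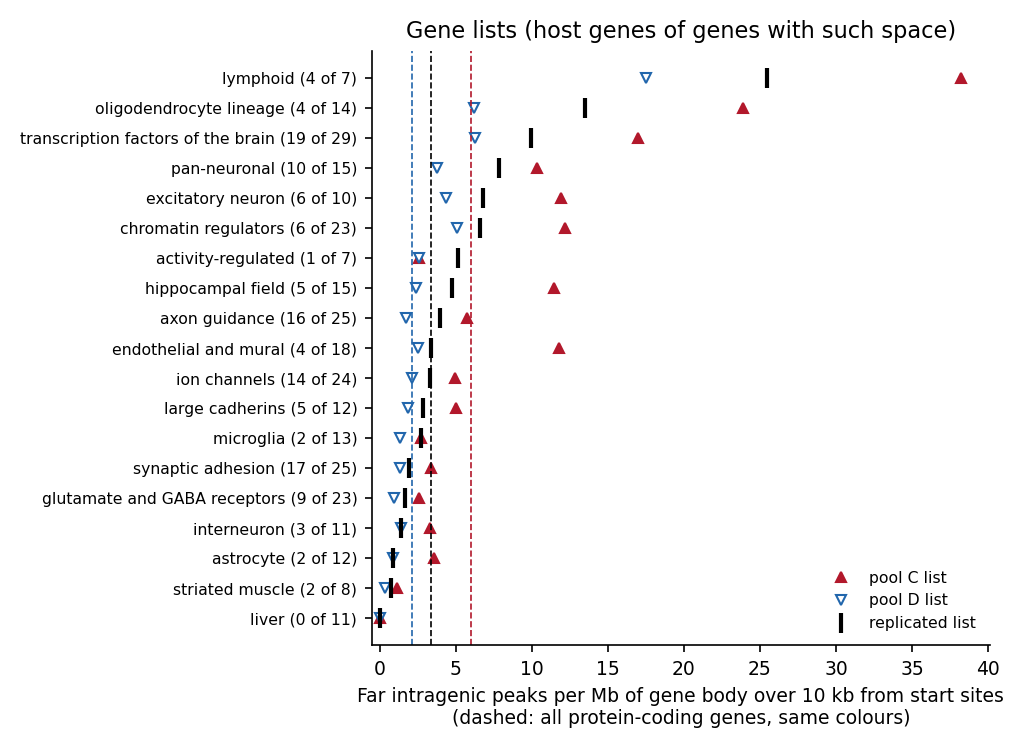
Far intragenic peaks per Mb of gene body over 10 kb from start sites for 19 gene lists (rows), in the pool C list (red triangles), the pool D list (open blue triangles) and the replicated list (black bars). Dashed lines give all protein-coding genes in the same 3 lists, and the numbers beside each name are host genes of genes with such space. Transcription factors of the brain lie to the right of all 3 lines and synaptic adhesion genes to the left.

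Chromosome X had few far intragenic peaks. It held 14, or 0.446 per Mb of gene-body space over 10 kb from start sites, against 2041 on the autosomes, or 3.48 per Mb. Pool C had 0.893 per Mb on X and 6.04 on the autosomes, and pool D had 0.351 and 2.23. Other classes of peak were not counted by chromosome, so the low value is not shown to be particular to far intragenic peaks. The mice were male, with a single copy of chromosome X, and the part of this was not tested.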

How the data were processed

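H3K4me3 ChIP-seq peak lists of mouse hippocampus were analysed as deposited. Per the labels, 1 list was called on each pool, 1 on both pools and 1 holds replicated peaks, all on mm10. The caller is not given in the sources used here. For each peak the authors deposited a signal value, −log10 q values (with p-values, not used), a score and a summit, and the signal was compared only within a list. Depth and read counts are unknown, so no counting interval was given.

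Peaks were set against GENCODE M21 and sequence of GRCm38.p6 (mm10) with Python 3.11.15, pandas 2.3.3, numpy 2.4.6 and pysam 0.24.0. A peak was found in a pool if it shared at least 1 bp with a peak of that list. The code for classes, overlaps and base content was tested on simulated data. Repeats were the lower-case bases of the assembly. No test was run, since each pool gave 1 list.

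The members and lists were chosen with earlier results of these data known. Names follow a rule: the 10 strongest and 5 widest peaks, the 5 hosts with the most, the leading gene of each list, the strongest per location and per missing pool, and those nearest 10 kb. Peaks on chromosome 18 were not considered for printed sequences. Other members of the lists are examples, and genes chosen otherwise are said to be. Alternatives were other distances, start sites, thresholds, lists and overlaps. A few genes of the lists are not reported here.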

Additional observations from a re-analysis of the deposited data

How the results depend on the processing

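The density ratio stayed above 1 and within the spread of the pools under the 10 alternatives other than −log10 q of at least 20 (1.18 to 1.75). At that level, which was chosen after seeing the data, the ratio turned to 0.908. There were 329 far intragenic peaks with a median width of 971 bp, of which 100% were found in pool D and 15.8% were CpG-island-like. A promoter peak that itself reached that level was found for 73.0% of their hosts, with weaker promoter peaks left out. The number of far intragenic peaks was 1184 at 20 kb from start sites, 4036 with protein-coding start sites only, 1174 at −log10 q of at least 5, 3574 in pool C and 1318 in pool D. Their median width was 551 bp at 5 kb, 531.5 bp at 20 kb, 610.5 bp with protein-coding start sites only, 695.5 bp at −log10 q of at least 5, 495 bp in pool C, 490.5 bp in pool D, 450 bp when both pools were called together, 566 bp with peaks within 1 kb joined, and 534 bp with RefSeq start sites added, which was also chosen after seeing the data and left 1661 peaks. The pools differed so little in this median (SD 3.18 bp) that small shifts exceed their spread. The share found in pool D was 86.1% at −log10 q of at least 5 and 34.2% for the peaks of pool C. The CpG-island-like share was 9.86% with protein-coding start sites only. The share of hosts with a marked promoter was 85.2% in pool C and 90.7% for protein-coding gene bodies. For these shifts the cause was not tested. Single libraries could not be left out, since both of a pool share 1 alignment, and the pool lists stand in for that. No paired analysis was possible because each pool gave 1 list and no test was run. Unknown depth limits what the missing weak peaks of pool D can show.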
